A study of Mus musculus with 4 samples.

Results

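The genes described here are 7 of the pathway by which liver cells set sterol and fatty acid synthesis: Srebf1 and Srebf2, Insig1 and Insig2, Stard4, Mbtps1 and Mbtps2. They were found by gene symbol in the deposited expression table, where rows with the same symbol were summed, and 6 of the 7 had a row of their own among 22849 symbols. Mbtps1 appears only in a row that it shares with 4632415K11Rik, so that row is given apart and is not counted with the 6. All mice were male C57BL/6, an inbred strain, and ate food with 60% fat over 12 weeks before liver RNA was taken. The vehicle group (2 libraries) received this food alone. In the UAB126 group (2 libraries) each kg of food also held 1.2 g of UAB126, a compound known here only by its code. The labels name no genotype and no age. Nothing says that the libraries of a group came from separate mice, so the p-values measure only the spread between these samples, which may be technical.

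Sterol regulatory element binding proteins (SREBPs) are transcription factors made as precursors anchored in the endoplasmic reticulum, each bound to the escort protein SCAP. When sterols are plentiful, Insig proteins hold SCAP in the endoplasmic reticulum; when sterols fall, SCAP carries the precursor to the Golgi, where the site-1 protease and then the site-2 protease cut it and free the active factor. In liver, SREBP-2 is best known for driving cholesterol synthesis genes, and SREBP-1c, a product of Srebf1, for driving fatty acid synthesis genes in response to insulin and to the oxysterol receptor LXR.

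Levels are given as FPKM, fragment numbers scaled by transcript length and by the size of the library, and differences as UAB126 minus vehicle on the log2(FPKM + 1) scale, where ± is the moderated standard error from limma (n = 2 per group). A gene passed when its limma p-value, adjusted by the Benjamini-Hochberg method over 10786 tested genes, was under 0.05. Vehicle replicates 1 and 2 had 0.691 and 0.404 of the depth of UAB126 replicate 1, and UAB126 replicate 2 had 0.703 of it, as read from single-fragment steps among low values. The absolute depth is unknown, so no counting interval is given. Across tested genes, 15 passed (0.139%), and 1446 (13.4%) had an unadjusted p under 0.05. Both UAB126 libraries lay above both vehicle libraries in 22.7% of tested genes and below them in 26.9%, so that the groups did not overlap in 49.6%. In liver RNA as a whole, fewer cells of a type and less RNA per cell cannot be told apart.

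With UAB126 the SREBP genes differed in opposite directions: Srebf1 was lower by a factor of 2.30 between group means and Srebf2 was higher by a factor of 1.64. Insig1 and Stard4, which are themselves textbook SREBP targets, were lower, and Mbtps2 was higher. All 6 genes passed the filter on low values. None of the 6 passed the threshold in limma, and 3 had an unadjusted p under 0.05 (Srebf1, Srebf2 and Stard4), 1 higher and 2 lower, beside 5.03% and 8.38% of all tested genes. That number was 1 with quantile normalization. Leaving out vehicle replicate 1 gave 4, leaving out vehicle replicate 2 or UAB126 replicate 1 gave 1, and leaving out UAB126 replicate 2 gave 0. The groups did not overlap in 5 of 6 genes, 2 higher and 3 lower, which is read against the 49.6% of all tested genes. The median difference of the 6 was -0.16, against -0.03 over all tested genes, and its sign depended on the setting: it was 0.11 with quantile normalization, 0.05 without vehicle replicate 1 and -0.37 without vehicle replicate 2.

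**Figure D1:**
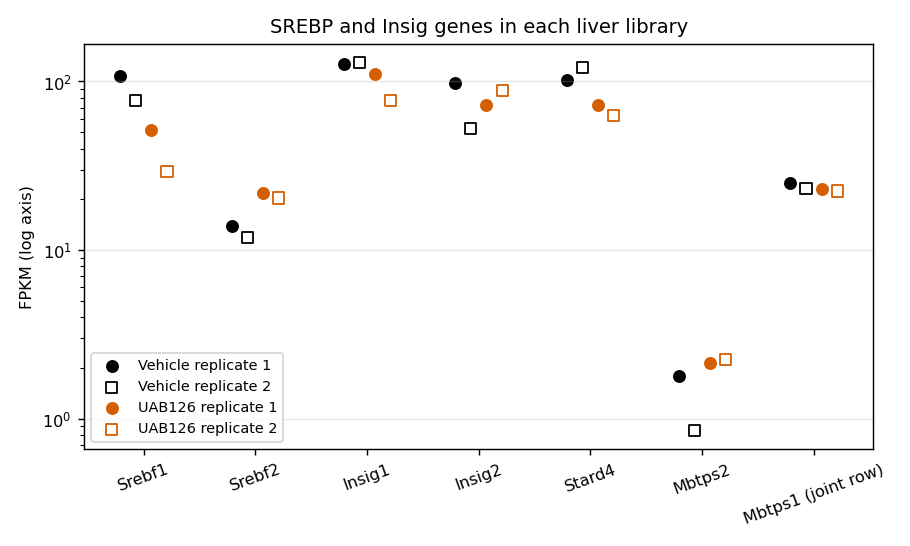
FPKM on a log axis of the 6 genes and of the row shared by Mbtps1 (horizontal axis), with 1 symbol per library: black for vehicle, orange for UAB126, filled for the first replicate and open for the other. Both UAB126 points lie below both vehicle points for Srebf1, Insig1 and Stard4 and above them for Srebf2 and Mbtps2, while those of Insig2 fall between the vehicle points.

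Srebf1 encodes SREBP-1a and SREBP-1c, which start from different first exons (chromosome 11, 60199084 to 60224186, RefSeq on GRCm38, the assembly also called mm10). On vehicle its level was 108.5 FPKM in replicate 1 and 77.6 FPKM in replicate 2. On UAB126 it was 51.8 FPKM in replicate 1 and 29.1 FPKM in replicate 2, and the values of other genes are given in the same order. The groups did not overlap: the lower vehicle value stayed above the higher UAB126 value. The libraries differed 1.40-fold within vehicle and 1.78-fold within UAB126, against 2.30-fold between the group means. The difference was -1.22 ± 0.34 (limma adjusted p = 0.277, unadjusted p = 0.0150), with a 95% interval from -2.09 to -0.35. Among all tested genes it lay at percentile 2.92 of the differences. With quantile normalization the difference was -1.01 (limma unadjusted p = 0.0640). It was -1.62 without UAB126 replicate 1 and -0.81 without UAB126 replicate 2.

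The row of Srebf1 has 1 start site. Its deposited locus begins at base 60105012, well outside the RefSeq range that begins at 60199084, and ends at base 60220658. That is 31 bases before the start that RefSeq places at 60220627 on the minus strand, and it leaves out the more upstream RefSeq start at 60222581. A further RefSeq start lies at 60210471. The table does not split the gene by transcript, so the levels of SREBP-1a and SREBP-1c mRNA are not separated.

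Srebf2 encodes SREBP-2 (chromosome 15, 82147269 to 82205379). It measured 13.9 and 11.8 FPKM on vehicle against 21.7 and 20.4 FPKM on UAB126. Both UAB126 libraries were above both vehicle libraries, and the libraries of a group differed little, 1.17-fold in vehicle and 1.07-fold with UAB126. The difference was 0.67 ± 0.18 (limma adjusted p = 0.274, unadjusted p = 0.0132), with a 95% interval from 0.21 to 1.14, at percentile 95.9 of all tested genes. Mir33, a microRNA gene inside an intron of Srebf2, has its own row, which is listed at 0 in all 4 libraries; these libraries were selected for polyadenylated RNA.

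Within a library, FPKM are scaled by transcript length, which allows only a rough comparison between genes. It rests on the deposited gene models, and the locus of Srebf1 reaches well outside its RefSeq range. The same limit holds for the other comparisons of level between genes given below. The level of Srebf1 was 7.81 and 6.55 times that of Srebf2 in the vehicle libraries and 2.38 and 1.43 times with UAB126. Because Srebf1 was lower and Srebf2 higher without overlap, the ratio had to be lower in both UAB126 libraries than in both vehicle libraries. An exact two-sided permutation test of the log ratio gave p = 0.333, the smallest p that 2 against 2 libraries allow. That outcome was fixed by the values of the genes already given, so the test adds nothing to them.

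Upstream sequence is shown for the SREBP genes, which differed in opposite directions, and for Insig1, a target that differed in the other direction from most cholesterol synthesis genes described below. Each stretch is from RefSeq promoters on GRCm38, written 5′ to 3′ on the strand of the gene, and stops before the first exon that GENCODE M21 or the deposited locus gives. Capitals mark the motif letters found in the printed part: the sterol regulatory element in its strict form with at most 1 mismatch, the E-box CACGTG, the NF-Y box CCAAT and the Sp1 box GGGCGG, or their reverse complements.
Srebf2, chr15:82147019-82147180, plus strand: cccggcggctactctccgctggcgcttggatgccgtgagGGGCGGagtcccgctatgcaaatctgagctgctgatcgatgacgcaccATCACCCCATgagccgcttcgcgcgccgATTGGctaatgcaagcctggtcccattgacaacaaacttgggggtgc
Insig1, chr5:28071162-28071362, plus strand: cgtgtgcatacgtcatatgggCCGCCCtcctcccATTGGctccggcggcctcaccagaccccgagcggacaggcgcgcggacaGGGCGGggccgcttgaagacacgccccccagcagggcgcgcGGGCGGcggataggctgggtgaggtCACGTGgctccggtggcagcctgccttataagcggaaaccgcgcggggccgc
Srebf1, chr11:60220659-60220877, minus strand: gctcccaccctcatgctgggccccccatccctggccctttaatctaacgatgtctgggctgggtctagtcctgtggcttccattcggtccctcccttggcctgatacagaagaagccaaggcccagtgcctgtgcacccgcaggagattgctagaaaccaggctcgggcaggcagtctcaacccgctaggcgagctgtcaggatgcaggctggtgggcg

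Motifs were searched on both strands of the 250 bases before each RefSeq start. The sterol regulatory element was searched as TCACNCCAC and in a strict form that sets N to C and puts an A in front. In Srebf2 the letters ATCACCCCAT stand 163 to 154 bases before the start, a match to the sterol regulatory element with the substitution C10T, counted from 1 at the 5′ end of the strict form. A match with at most 1 mismatch, a search added after the data were seen, was found before 1.65% of 32851 starts. An exact match to the strict form was found before 0.0731% of starts and one to TCACNCCAC before 1.05%, and before none of the starts of Srebf1, Srebf2, Insig1, Insig2, Mbtps1 and Mbtps2. The upstream sequence of Stard4 was not examined by itself for any motif. Every match to the strict form is also one to TCACNCCAC.

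Srebf2 also had 1 NF-Y box and 4 Sp1 boxes, of which 1 Sp1 box is in the printed part. Insig1 had the E-box 101 to 96 bases before its start, 1 NF-Y box and 3 Sp1 boxes. The Srebf1 start nearest the deposited locus end had 2 Sp1 boxes, both outside the printed part. The sequences before the other Srebf1 starts are not printed, so the printed stretch does not stand for the whole gene. The starts were not assigned to SREBP-1a or SREBP-1c, and no LXR element was searched for. The start at 60210471 had 1 NF-Y box and 2 Sp1 boxes, and the start at 60222581 had 1 NF-Y box. The E-box stood before 6.02% of starts, the NF-Y box before 33.8% and the Sp1 box before 32.7%. A match is a match of letters only.

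The Insig genes encode the proteins that hold SCAP in the endoplasmic reticulum. Insig1 lies on chromosome 5 (28071412 to 28078662), and its deposited locus reaches well outside this range, spanning 206629 bases from 27872034. It measured 127.3 and 129.8 FPKM on vehicle against 110.3 and 76.7 FPKM on UAB126. Both UAB126 libraries were below both vehicle libraries, but UAB126 replicate 1 was close to them: the lower vehicle library was 1.15 times its level, and the UAB126 libraries differed 1.44-fold. The difference was -0.48 ± 0.26 (limma adjusted p = 0.442), with a 95% interval from -1.12 to 0.17. It was -0.17 with quantile normalization, -0.74 without UAB126 replicate 1 and -0.22 without UAB126 replicate 2.

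Insig2 (chromosome 1, 121304353 to 121332662) has a transcript particular to liver that insulin is known to lower; the table gives 1 value for its 3 start sites. Its levels were 97.8 and 52.7 FPKM on vehicle, and 73.0 and 87.9 FPKM on UAB126. The groups overlapped, with both UAB126 libraries between the vehicle libraries, which differed 1.86-fold. The difference was 0.15 ± 0.34 (limma adjusted p = 0.849), with a 95% interval from -0.71 to 1.02, which spans both directions. Its sign turned without vehicle replicate 2 (-0.29), and it was 0.59 without vehicle replicate 1. The ratio of Insig1 to Insig2 was 1.30 and 2.46 in vehicle and 1.51 and 0.873 with UAB126, which overlap (exact two-sided permutation p = 0.667).

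Stard4 encodes a small START domain protein that carries cholesterol through the cytosol (chromosome 18, 33199138 to 33213862). Summed over its 2 rows, it measured 102.0 and 120.8 FPKM on vehicle against 72.2 and 63.0 FPKM on UAB126. The groups did not overlap, and the lower vehicle library was 1.41 times the higher UAB126 library. The difference was -0.71 ± 0.22 (limma adjusted p = 0.305, unadjusted p = 0.0204), with a 95% interval from -1.26 to -0.16, and it was -0.45 with quantile normalization.

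The 2 rows of Stard4 share a locus and differ in level and in order. The main row measured 94.3 and 115.3 FPKM on vehicle against 58.6 and 57.0 FPKM on UAB126, a difference of -0.84. The minor row measured 7.69 and 5.51 FPKM on vehicle against 13.7 and 5.95 FPKM on UAB126, where the groups overlap. The table does not say which transcripts these rows hold.

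The proteases that cut the SREBP precursors were measured less well. Mbtps2 encodes the site-2 protease (chromosome X, 157547822 to 157598715). It measured 1.79 and 0.846 FPKM on vehicle against 2.14 and 2.23 FPKM on UAB126. Both UAB126 libraries were above both vehicle libraries, but the vehicle libraries differed 2.12-fold, and the lower value is from the shallowest library. The difference was 0.49 ± 0.27 (limma adjusted p = 0.456), with a 95% interval from -0.20 to 1.18. It was 0.19 without vehicle replicate 2, 0.79 without vehicle replicate 1 and 0.77 with a pseudocount of 0.1 FPKM.

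Mbtps1 encodes the site-1 protease (chromosome 8, 119508151 to 119558864). The row it shares with 4632415K11Rik measured 24.8 and 23.1 FPKM on vehicle against 23.1 and 22.4 FPKM on UAB126. These are nearly level: the libraries of the groups differ by a factor of 1.05 between means, and the difference was -0.07 ± 0.18 (limma adjusted p = 0.869), with a 95% interval from -0.52 to 0.38. Its FPKM cannot be divided between the genes it names. SCAP itself was left out of the set because one of the rows of Scap holds 366168 and 825022 FPKM on vehicle against 129384 and 105770 FPKM on UAB126. The other Scap row measured 35.8 and 24.9 FPKM on vehicle against 42.5 and 44.3 FPKM on UAB126.

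By level, Insig1 was first of the 6 genes in both vehicle libraries and Mbtps2 last in all 4 libraries, with Srebf2 next to last. In vehicle, Srebf1, Stard4 and Insig2 lay between them, and Srebf1 overlapped both Stard4 and Insig2. With UAB126, Srebf1 came after Insig1, Insig2 and Stard4 in both libraries. Insig1 and Insig2 overlapped there, whereas the ranges of Stard4 (63.0 to 72.2 FPKM), Srebf1 (29.1 to 51.8 FPKM) and Srebf2 (20.4 to 21.7 FPKM) did not.

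**Figure D2:**
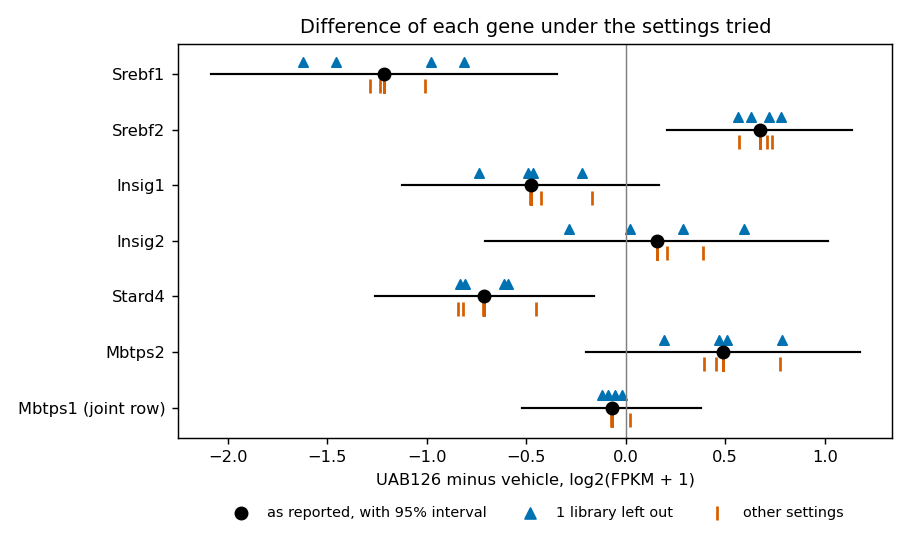
UAB126 minus vehicle on the log2(FPKM + 1) scale for each gene, as reported (black circle with its 95% interval), with 1 library left out (blue triangles) and under the other settings (orange ticks). Srebf1, Stard4 and Insig1 stay below 0 and Srebf2 and Mbtps2 above 0 at every symbol, while Insig2 runs from -0.29 to 0.59.

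The genes whose pattern over the 4 libraries was most like that of Srebf1 were Klhdc7a, Arrdc3 and Sucnr1, out of 6804 genes compared. The measure was the root mean square distance between centred log2(FPKM + 1) values, which was 0.030, 0.085 and 0.118. Arrdc3, an arrestin-domain gene, measured 94.0 and 74.3 FPKM on vehicle against 41.9 and 25.7 FPKM on UAB126. Sucnr1, the succinate receptor gene, was at 45.7 and 33.3 FPKM and at 18.9 and 13.2 FPKM. For Stard4 the nearest genes were Dis3l2, Selenbp1 and Mettl8, at distances of 0.038, 0.041 and 0.041. Over 4 libraries this likeness is only a description.

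The enzymes of cholesterol synthesis, the classic targets of SREBP-2, were mostly higher with UAB126. Of 20 listed, 19 had a row of their own and 18 were tested; Tm7sf2 is only in a joint row and Idi1 was below the filter. The groups did not overlap in 13 of 18, all higher, beside 22.7% of all tested genes that were higher in this way. None passed over all genes in limma, and 9 had an unadjusted p under 0.05, all higher, beside 5.03% of all tested genes. The median difference was 0.63, against -0.03 over all tested genes, and 0.99 with quantile normalization. It ran from 0.61 to 0.75 over the fits without 1 library.

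Sqle, squalene epoxidase, had the smallest p: it measured 7.71 and 10.2 FPKM on vehicle against 40.3 and 31.3 FPKM on UAB126, a difference of 1.88 ± 0.23 (limma adjusted p = 0.0900). Without 1 library, where the lone library of a group is assumed to vary like the other group, its limma adjusted p was 0.0315 and 0.0556 without vehicle replicates 1 and 2 and 0.575 and 0.572 without UAB126 replicates 1 and 2. Nsdhl and Sc4mol, which act in the removal of methyl groups from the sterol ring, differed by 1.31 ± 0.22 and 1.03 ± 0.20. Lss, which closes the sterol ring system, measured 12.1 and 8.90 FPKM on vehicle against 28.6 and 22.2 FPKM on UAB126, a difference of 1.20 ± 0.24 (limma adjusted p = 0.209). Over the fits without 1 library that p ran from 0.0496 (without vehicle replicate 1) to 0.918 (without UAB126 replicate 1). Srebf2 lay above the vehicle range together with these enzymes, while Insig1 and Stard4 lay below it.

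Targets of SREBP-1c in fatty acid synthesis and desaturation were split. Of 15 listed genes, 13 were tested; Elovl5 is only in a joint row and Pnpla3 was below the filter. Both UAB126 libraries were higher in 3 and lower in 5, beside 22.7% and 26.9% of all tested genes. None passed over all genes in limma; at an unadjusted p under 0.05 there were 1 higher and 3 lower, beside 5.03% and 8.38% of all tested genes. The median difference was -0.26, and -0.09 with quantile normalization, -0.39 with the length trend removed, -0.16 without vehicle replicate 1 and -0.02 without UAB126 replicate 2. The lowest difference of the list, that of Acacb, was -1.88 ± 1.95. Summed over 2 rows, Acacb measured 410.1 and 4744 FPKM on vehicle against 60.1 and 2350 FPKM on UAB126. Its libraries thus differed 11.6-fold within vehicle and 39.1-fold within UAB126.

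Among those lower were Scd1, the main stearoyl-CoA desaturase of liver, and Thrsp and Mid1ip1, related regulators of fatty acid synthesis. Scd1 measured 2402 and 1590 FPKM on vehicle against 942.1 and 997.6 FPKM on UAB126, a difference of -1.01 ± 0.32 (limma adjusted p = 0.314), and of -0.47 with quantile normalization. Thrsp differed by -1.48 ± 0.26 and Mid1ip1 by -1.38 ± 0.26 (limma adjusted p = 0.162 and 0.193). In the other direction, Me1, the cytosolic malic enzyme that supplies NADPH, measured 31.5 and 27.4 FPKM on vehicle against 55.3 and 77.2 FPKM on UAB126, a difference of 1.13 ± 0.24 (limma adjusted p = 0.227). Scd1, Thrsp, Mid1ip1, Acaca and Elovl6 thus lay below the vehicle range like Srebf1, and Me1, Fads1 and Fads2 lay above it. The groups overlapped in Fasn, Acly, Acss2, Gpam and Acacb.

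**Figure D3:**
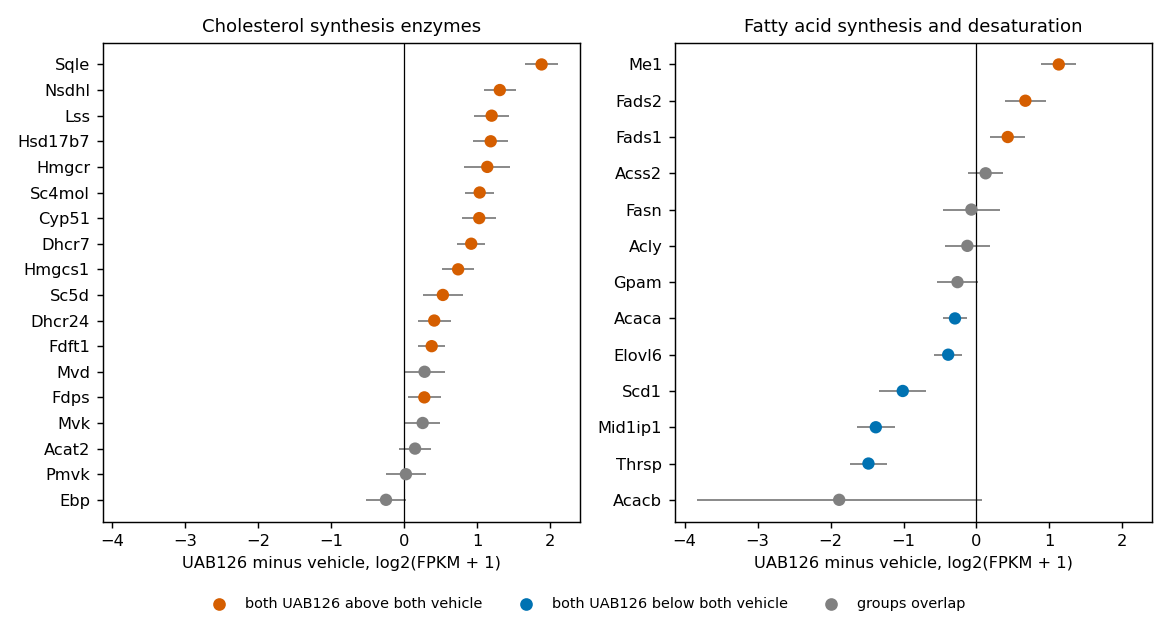
UAB126 minus vehicle on the log2(FPKM + 1) scale, with limma's standard error as bars, for the 18 tested cholesterol synthesis enzymes (left) and the 13 tested genes of fatty acid synthesis and desaturation (right); colour gives whether the groups overlap. Of the enzymes on the left 13 have both UAB126 libraries above both vehicle libraries and none below, and on the right 3 are above and 5 below.

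Genes that act on SCAP, SREBP and Insig proteins in the endoplasmic reticulum and Golgi were split in direction. Of 17 tested, 6 were higher without overlap and 4 lower, beside 22.7% and 26.9% of all tested genes, none passed over all genes in limma, and 3 had an unadjusted p under 0.05, all higher, beside 5.03% of all tested genes. The median difference was 0.09, and -0.08 without vehicle replicate 2. Paqr3, a Golgi protein known to anchor SCAP and SREBP there, measured 1.69 and 1.40 FPKM on vehicle against 3.61 and 2.67 FPKM on UAB126, a difference of 0.69 ± 0.22 (limma adjusted p = 0.314). Rnf139, an endoplasmic reticulum ubiquitin ligase that binds Insig, measured 13.9 and 12.9 FPKM on vehicle against 19.6 and 21.6 FPKM on UAB126, a difference of 0.58 ± 0.18. Ube2g2, a ubiquitin-conjugating enzyme of the same membrane, and Ubxn4 differed by 0.49 ± 0.19 and -0.36 ± 0.19, the latter by -0.21 with quantile normalization.

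The COPII coat, which buds the vesicles that carry SCAP with its SREBP, was measured through 12 of 14 listed genes, since Sec13 and Sec24c are only in joint rows. Of these 12 genes, 1 was higher without overlap and 4 lower, beside 22.7% and 26.9% of all tested genes. None passed over all genes in limma, and 1 had an unadjusted p under 0.05, beside 13.4%. That gene, Sec24a, a cargo-binding subunit, measured 154.4 and 166.8 FPKM on vehicle against 73.5 and 107.9 FPKM on UAB126, a difference of -0.84 ± 0.26 (limma adjusted p = 0.310), and of -0.54 with quantile normalization. Sec23a, an inner coat subunit, measured 22.3 and 13.8 FPKM on vehicle against 25.0 and 24.0 FPKM on UAB126. Its difference was 0.13 without vehicle replicate 2 and 0.78 without vehicle replicate 1. Sec23b differed by -0.34 ± 0.19 (-0.22 with quantile normalization or without vehicle replicate 1) and Sec24d by 0.42 ± 0.29 (from 0.06 without vehicle replicate 2 to 0.77 without vehicle replicate 1). The median of the list was -0.10, and 0.09 with quantile normalization.

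Other proteins cut by the site-1 protease include the stress factor ATF6 and the CREB3 family. Of 7 tested genes, 1 was higher without overlap and none lower, beside 22.7% and 26.9% of all tested genes, and none had a limma adjusted or an unadjusted p under 0.05. Atf6 measured 10.1 and 6.45 FPKM on vehicle against 12.9 and 11.2 FPKM on UAB126, a difference of 0.52 ± 0.25 that was 0.24 without vehicle replicate 2 and 0.81 without vehicle replicate 1. Creb3l3, the liver member of the family, measured 211.0 and 185.5 FPKM on vehicle against 153.6 and 192.8 FPKM on UAB126, which overlap; its sign turned with quantile normalization (0.16). Creb3 and Creb3l1 differed by -0.46 ± 0.28 and 0.23 ± 0.31, and the groups overlapped in both. Without vehicle replicate 2 these differences were -0.17 and -0.13, and without vehicle replicate 1 -0.75 and 0.59.

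Among 12 tested genes of sterol transfer other than Stard4, 2 were higher without overlap and 4 lower, beside 22.7% and 26.9% of all tested genes, and none passed over all genes in limma. The gene with the smallest p was Gramd1c, of a family that moves cholesterol from the plasma membrane to the endoplasmic reticulum. It measured 14.9 and 11.2 FPKM on vehicle against 27.2 and 26.7 FPKM on UAB126, a difference of 1.01 ± 0.21 (limma adjusted p = 0.214), the only 1 of the 12 with an unadjusted p under 0.05, beside 13.4% of all tested genes. Scp2, sterol carrier protein, measured 1103 and 923.1 FPKM on vehicle against 735.8 and 509.0 FPKM on UAB126, a difference of -0.72 ± 0.31, of -0.29 with quantile normalization and of -0.45 without UAB126 replicate 2. Stard3nl and Osbpl2 differed by -0.40 ± 0.17 and -0.33 ± 0.19, the latter by -0.21 without UAB126 replicate 1. The median of the list was 0.01, and ran from -0.18 without UAB126 replicate 2 to 0.13 without UAB126 replicate 1.

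Nuclear receptors and other factors known to act on the Srebf1 gene were split in direction. Of 12 tested, 3 were higher without overlap and 3 lower, beside 22.7% and 26.9% of all tested genes, and none passed over all genes in limma. The median difference was 0.02, 0.19 with quantile normalization and -0.02 without UAB126 replicate 2. Usf1, an E-box factor, measured 15.9 and 20.1 FPKM on vehicle against 11.0 and 13.0 FPKM on UAB126, a difference of -0.55 ± 0.21 (limma adjusted p = 0.360), and was the only 1 of the 12 with an unadjusted p under 0.05, beside 13.4% of all tested genes. Bhlhe40, a clock-linked repressor, and Rxrb, a partner of LXR, differed by -0.60 ± 0.34 and 0.41 ± 0.20. The former was -0.15 without vehicle replicate 1 and -1.05 without vehicle replicate 2, and the latter 0.23 without UAB126 replicate 2. Irs2, an insulin receptor substrate whose gene insulin lowers, measured 2.28 and 0.640 FPKM on vehicle against 5.76 and 2.21 FPKM on UAB126, which overlap.

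**Figure D4:**
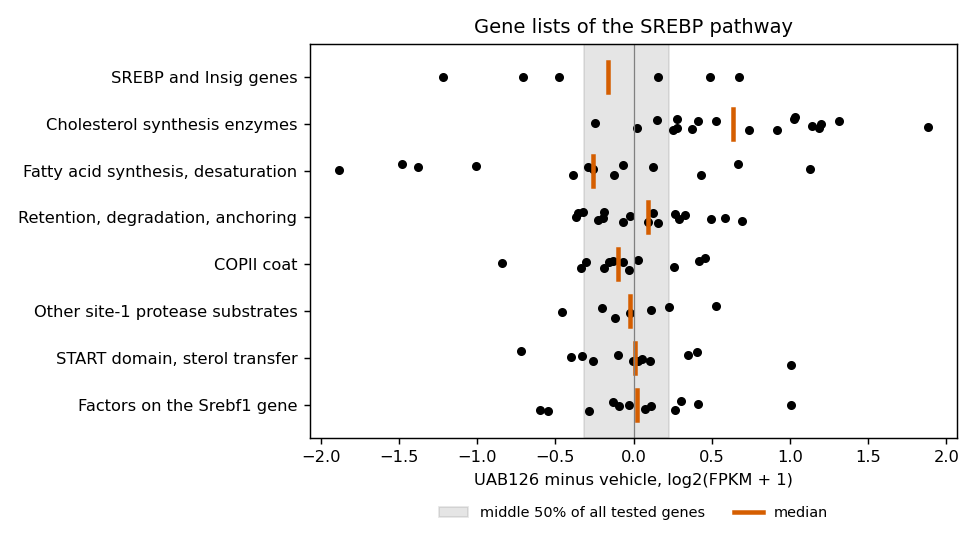
Each point is the UAB126 minus vehicle difference of 1 tested gene on the log2(FPKM + 1) scale, by gene list (vertical axis), with the median of the list as an orange bar and the middle 50% of all tested genes shaded. The median of the cholesterol synthesis enzymes, 0.63, lies to the right of the shaded range, and those of the other lists lie within it.

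Markers of liver cell types were read in the same libraries. Of 7 hepatocyte markers, 1 was higher without overlap and 4 lower, beside 22.7% and 26.9% of all tested genes. Their summed level was 60165 and 117651 FPKM on vehicle against 32713 and 48217 FPKM on UAB126, and Alb is listed at 0 in all but vehicle replicate 2. Of 6 Kupffer cell markers, 3 were higher without overlap and none lower, beside the same shares, with sums of 51.3 and 134.8 FPKM on vehicle against 120.9 and 125.9 FPKM on UAB126. Sums for 4 sinusoidal endothelial markers were 51.1 and 87.3 FPKM on vehicle against 77.7 and 96.3 FPKM on UAB126. Of 5 cholangiocyte markers 1, Sox9, was lower without overlap, at 2.85 and 2.42 FPKM on vehicle against 1.68 and 0.943 FPKM on UAB126. Alas2, the 1 erythroid marker with a row of its own, measured 163.9 and 189.1 FPKM on vehicle against 59.8 and 70.8 FPKM on UAB126, a difference of -1.42. Stellate cell markers were higher without overlap in 1 of 5 and lower in none. None of the 4 lymphocyte genes reached 2 FPKM in any library. The part of cell makeup in the differences above was not tested.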

How the data were processed

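The authors deposited 1 table of FPKM values with a column for each of 4 liver libraries. They used Cufflinks 2.2.1 with Cuffdiff, STAR 2.5.1b and Trim Galore 0.4.1 on mm10, per the submitters' processing notes. Neither settings nor gene annotation is given in the sources used here. Rows without a symbol (3634 of 27216) were left out, and rows naming several genes were kept under their joint name. Genes averaging 1 FPKM or more were fitted as log2(FPKM + 1) with limma 3.58.1 in R 4.3.3 (intensity trend, group as the only term, two-sided); 3.35 of the 5.35 degrees of freedom come from the spread of other genes. The fit was also run on values simulated from its own means and spread. That run cannot show whether the real libraries follow the model. Members and lists were chosen with earlier results of these data known. Named beside the members were up to 4 genes per list with the smallest p, and any past the threshold. Nearest genes were sought among single symbols averaging 5 FPKM or more. Lengths came from GENCODE M21. In all, 13 alternatives were tried. Python 3.11.15 was used for other numbers.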

Additional observations from a re-analysis of the deposited data

How the results depend on the processing

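None of the 6 genes passed the threshold in limma under any of the 13 alternatives. Srebf1, Srebf2, Insig1, Stard4 and Mbtps2 kept their direction in each alternative in which they were tested; at a mean of at least 5 FPKM Mbtps2 was not. Over the fits that left out 1 library, Insig2 ran from -0.29 (without vehicle replicate 2) to 0.59 and Creb3l1 from -0.13 (without vehicle replicate 2) to 0.59. The row shared by Mbtps1 turned to 0.021 with quantile normalization and Creb3l3 to 0.16. Among the 6 genes, the lowest limma adjusted p was that of Srebf1 with the replicate number as a block, 0.0546. The count over all genes, 15, was 27 with a pseudocount of 0.1 FPKM, 24 with quantile normalization, 0 with no filter (where 1764 had an unadjusted p under 0.05), and between 0 and 442 when a library was left out (0 without UAB126 replicate 2, where 737 had an unadjusted p under 0.05). With the replicate block it was 148, and Sqle, Nsdhl, Thrsp and Mid1ip1 passed. The replicate numbers were taken as names only: deviations of same-numbered libraries correlated at 0.178 across genes, and no label says what a number shares. Vehicle replicate 2, which gives the lowest value of Mbtps2, is the shallowest library (0.404 of the depth of UAB126 replicate 1); the part of depth in that value was not tested.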
